A study of Mus musculus with 12 samples.

Results

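The 46 genes described here are interferon-stimulated genes (ISGs), which cells switch on when they sense interferon or viral nucleic acid. They were taken by name from the deposited count table as every row whose gene symbol is on a list of 46 interferon-induced mouse genes, out of 57186 genes in the table. All 46 had a row of their own, and 35 had enough counts to be tested. They were followed in 3 tumor cell lines, DDKC_9750, DDKC_9790 and DDKC_9804, each grown from an end-stage pancreatic tumor of a DDKC mouse. DDKC mice lack Dkk3 in every tissue (Dkk3-/-) and carry Ptf1a Cre/+, which is active in the pancreas. Each line was left untreated or received rDKK3, recombinant soluble DKK3 protein, and 2 libraries were sequenced from each line and condition, 12 in all. The labels give every library the genotype DKK3 knockout, treated and untreated alike, and no age of the mice is used here. The comparison asks what externally supplied DKK3, which other cells of a tumor secrete, does to tumor cells that make none.

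Type I interferons bind the receptor chains IFNAR1 and IFNAR2, whose kinases JAK1 and TYK2 phosphorylate STAT factors. STAT2 and IRF9 take part in a complex that binds the interferon-stimulated response element (ISRE) in the promoters of ISGs, whereas interferon gamma acts at GAS elements. The products block viral RNA and protein synthesis, tag proteins with ISG15, sense foreign nucleic acid and attract T cells. Many tumor cells keep a low level of this program without any added interferon.

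Total counts were 7520741 to 24541083 per untreated library and 3822987 to 11567095 per treated library. The 2 libraries of a line and condition differed by less than sampling noise once a shift between low and high library numbers was allowed for (mean deviance per degree of freedom 0.780 over 12979 genes). It was 6.44 without allowing for that shift, and 25.4 with it when all 4 libraries of a line, with and without rDKK3, were taken as repeats. The 2 libraries were therefore added and counted as 1 sample, giving 6 samples, called cultures below, and n = 3 lines per condition. A gene with 3 counts or fewer was taken as undetected, which is 0.0856 to 0.292 CPM in these cultures, where CPM are counts scaled to a common library total with TMM factors. Dkk3 had 0 counts in 11 of 12 libraries and 1 count in the other. The keratins and other epithelial markers summed to 5591 CPM untreated and 3963 CPM with rDKK3 in DDKC_9750, 9658 and 7937 CPM in DDKC_9790, and 5036 and 3856 CPM in DDKC_9804, lower with rDKK3 in each line. Of that list Cdh1 went the other way in 2 lines, at 789 and 1053 CPM in DDKC_9750 and 310 and 354 CPM in DDKC_9804. Of the mesenchymal markers Vim was lower with rDKK3 in each line (2604 and 1621, 4789 and 3406, and 3381 and 2762 CPM) and Fn1 higher in each. Of 4 endothelial markers only Kdr had more than 6 counts in a culture, at 1.17 and 0.877 CPM, 14.99 and 10.3 CPM, and 7.93 and 17.3 CPM. Of 5 acinar markers only Cela1 was counted. The 6 fibroblast markers summed to 5.75 to 13.2 CPM, with Dcn and Lum at 0 or 1 count. Among them Pdpn had 8 and 44 counts in DDKC_9750 and at most 1 elsewhere, and Pdgfrb had 152 and 6 counts in DDKC_9804 and at most 2 elsewhere. Pdgfra was at 1.70 and 0.682 CPM in DDKC_9750 and 0.828 and 4.27 CPM in DDKC_9804. Of 9 leukocyte markers 7 had a count in some library, with Adgre1 and Cd3e at 0 and Ptprc, Itgam, Itgax and Cd74 at 0 to 3 counts in each culture. Their summed level, nearly all of it Cd68 and Csf1r, was 9.64 CPM untreated and 10.7 CPM with rDKK3 in DDKC_9750, 29.1 and 46.3 CPM in DDKC_9790, and 10.47 and 17.2 CPM in DDKC_9804. The part of these markers in the results below was not tested. In bulk RNA, fewer cells that use a gene and less of its RNA in each cell cannot be told apart.

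The promoters of several members carry the letters GAAANNGAAA, the core of the ISRE, and are shown because this is the element that the factors of the pathway bind. A promoter in the RefSeq set (GRCm38.p6, 250 bases before to 50 bases after a start) was matched by symbol for 34 of the 46 members, and 12 had no entry (Usp18, Parp9, Parp14, Rigi, Dhx58, Zbp1, Oas2, Mx1, Mx2, Iigp1, Ifi27 and Rtp4). The 250 bases upstream of the start are given 5′ to 3′ on the strand of the gene, in lower case, with each match to GAAANNGAAA on either strand in capitals and overlapping matches run together.
Isg15, chr4:156200819-156201068, minus strand: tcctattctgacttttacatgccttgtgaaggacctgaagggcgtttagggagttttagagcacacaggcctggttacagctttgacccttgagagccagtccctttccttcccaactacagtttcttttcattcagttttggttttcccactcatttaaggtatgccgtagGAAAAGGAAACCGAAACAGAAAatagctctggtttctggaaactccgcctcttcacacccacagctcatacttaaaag
Ifit1, chr19:34640639-34640888, plus strand: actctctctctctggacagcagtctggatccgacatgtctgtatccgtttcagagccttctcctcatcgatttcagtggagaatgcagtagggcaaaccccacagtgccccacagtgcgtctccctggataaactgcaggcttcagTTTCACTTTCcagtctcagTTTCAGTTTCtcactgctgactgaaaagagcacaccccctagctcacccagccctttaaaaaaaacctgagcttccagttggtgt
Ifit3, chr19:34583279-34583528, plus strand: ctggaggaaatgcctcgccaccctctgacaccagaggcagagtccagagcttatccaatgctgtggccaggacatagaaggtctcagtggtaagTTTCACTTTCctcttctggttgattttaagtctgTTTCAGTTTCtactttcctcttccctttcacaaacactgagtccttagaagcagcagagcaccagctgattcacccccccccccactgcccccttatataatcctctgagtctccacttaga
Ifit3b, chr19:34607707-34607956, plus strand: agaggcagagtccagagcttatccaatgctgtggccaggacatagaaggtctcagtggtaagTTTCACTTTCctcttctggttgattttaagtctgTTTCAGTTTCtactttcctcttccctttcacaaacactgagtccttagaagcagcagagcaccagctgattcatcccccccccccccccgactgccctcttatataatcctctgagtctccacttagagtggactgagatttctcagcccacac
Bst2, chr8:71537473-71537722, minus strand: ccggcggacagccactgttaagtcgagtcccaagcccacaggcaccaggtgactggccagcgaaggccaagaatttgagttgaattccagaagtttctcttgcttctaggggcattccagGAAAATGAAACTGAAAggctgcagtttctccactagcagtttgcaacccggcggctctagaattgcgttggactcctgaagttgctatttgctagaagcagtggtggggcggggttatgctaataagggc
In Isg15, 3 overlapping matches form 1 run that begins at position -78 from the start. Ifit3 and Ifit3b, nearby copies on chromosome 19, hold the same pair of matches. In a global alignment their windows were identical at 258 of the 260 positions that paired 2 bases (99.2%), against 164 of 274 (59.9%) for Ifit1 and Ifit3. Bst2, whose level hardly moved in these cells, holds 2 overlapping matches in a run that begins at position -130. Shorter windows around the first run are given for Gbp2, which differed by 2.35 in DDKC_9750 (log2 CPM), Irgm1, and Oas3, which was seen mainly in 1 line.
Gbp2, chr3:142620584-142620633, plus strand: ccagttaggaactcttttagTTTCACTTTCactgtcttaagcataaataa
Irgm1, chr11:48871421-48871470, minus strand: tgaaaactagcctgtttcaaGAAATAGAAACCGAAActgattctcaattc
Oas3, chr5:120777705-120777754, minus strand: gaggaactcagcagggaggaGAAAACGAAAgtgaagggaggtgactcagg
GAAANNGAAA was present in 18 of the 34 matched members (52.9%), against 3.99% of 27025 genes with a promoter in the same set. Beside the genes shown, the holders were Cxcl10, Ddx60, Gbp3, Gbp7, Ifih1, Igtp, Oas1a, Rsad2, Stat2 and Trim21. The GAS letters TTCNNNGAA were present in 7 of 34 members (20.6%), against 9.55% of genes. A match describes these letters and not binding.

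No member passed the test of rDKK3 against untreated across the 3 lines. By the quasi-likelihood test of edgeR, blocked by line, 0 of 35 members had an adjusted p under 0.05, and 0 had an unadjusted p under 0.05. DESeq2 also called 0, by adjusted p among 27 members that it gave one and by unadjusted p among all 35. The background is 0.00657% of the 15214 genes tested by adjusted p and 8.29% by unadjusted p. Adjusted p of the members ran from 0.675 to 0.999. Their log2 fold changes had a median of 0.036 and lay between -0.62 and 0.80, and the median was -0.30 without DDKC_9750 and 0.32 without DDKC_9804. This near-zero average was made of differences of opposite sign in different lines. They are described line by line below without a test, since each line has 1 culture per condition. Within a line, a response to rDKK3 cannot be told apart from a difference between single cultures.

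In DDKC_9750, 30 of 35 members were higher with rDKK3, with a median difference of 0.69 on the log2 CPM scale, whereas the median of all tested genes was -0.0093. In DDKC_9804, 32 of 35 were lower with rDKK3, with a median of -0.67, against -0.041 for all tested genes. In DDKC_9790 the members were spread about zero, 17 higher and 18 lower, with a median of -0.029. By a difference of at least 0.5, 22 of 35 members were higher in DDKC_9750 (background 13.9% of all tested genes) and 0 were lower (13.1%). By the same measure 1 was higher (13.3%) and 22 were lower (18.2%) in DDKC_9804, and 4 were higher (7.62%) and 2 lower (8.90%) in DDKC_9790. Both shifts met in 17 members, which were higher by at least 0.5 in DDKC_9750 and lower by at least 0.5 in DDKC_9804, a pattern of 3.80% of all tested genes. Without replicate 2, the libraries with the higher library numbers, 11 of 29 tested members showed it. Among the 15 members with a mean of at least 10 CPM, where counting error is small, 4 showed it, against 1.99% of genes at that level. Their median differences were 0.40 in DDKC_9750 and -0.44 in DDKC_9804, and those of the 20 members under 10 CPM were 1.27 and -0.95. Oas3 and Bst2 were the 2 members with 1 sign in all 3 lines, as 32.8% of all genes had, but the 0.01 of Bst2 in DDKC_9790 is too small to fix a sign, and the counting intervals of Oas3 spanned zero in every line, on 4 and 1 counts in DDKC_9750.

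**Figure D1:**
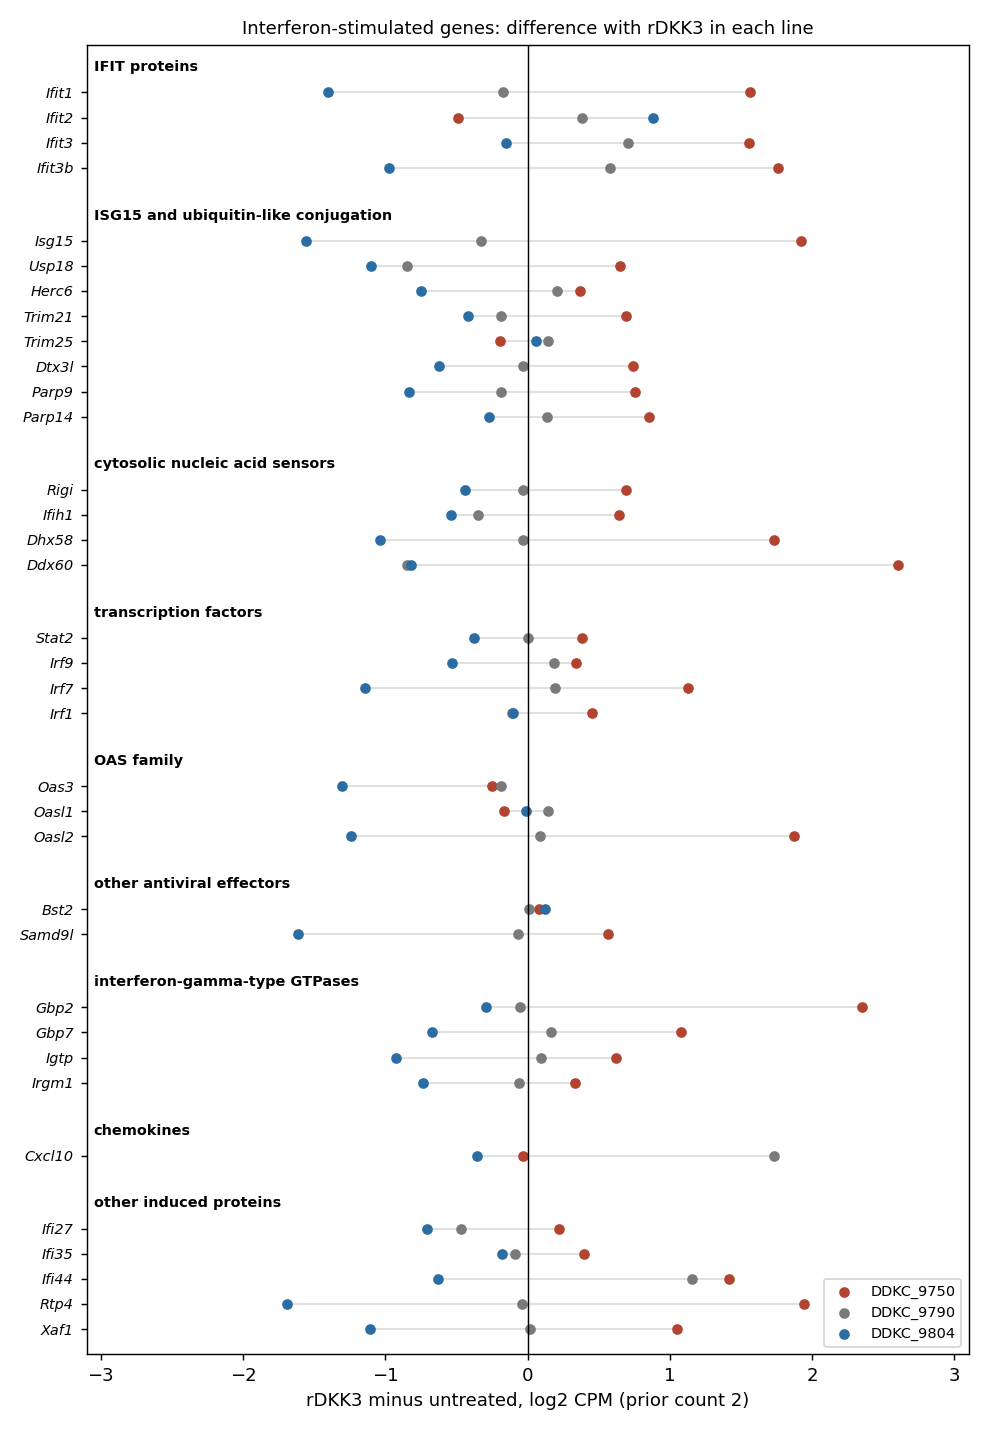
Difference of log2 CPM (prior count 2), rDKK3 minus untreated, for the 35 tested members grouped by role (rows), with 1 point for each line and a grey bar over their range. Most red points (DDKC_9750) lie right of zero and most blue points (DDKC_9804) left of it, and Ifit2 is turned the other way.

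**Figure D2:**
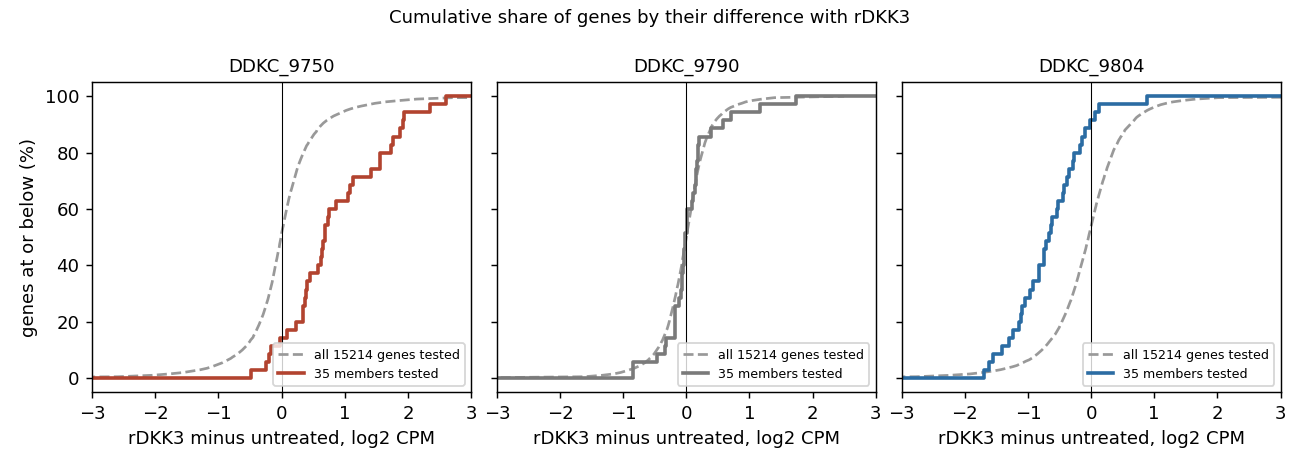
Cumulative share of genes in percent (y axis) by the difference of log2 CPM, rDKK3 minus untreated (x axis), in each line, for the 35 tested members (solid) and all 15214 tested genes (dashed). The members lie to the right of all genes in DDKC_9750, close to them in DDKC_9790 and to the left in DDKC_9804.

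Added over the 46 members, the level was 586 CPM in untreated and 806 CPM in treated DDKC_9750, 449 and 445 CPM in DDKC_9790, and 518 and 368 CPM in DDKC_9804. With rDKK3, DDKC_9750 was the highest of the lines for 24 of 35 members, against 5527 of all 15214 tested genes. Untreated, DDKC_9804 was the highest for 16 of 35, against 4709 of all genes. Without rDKK3, 22 of 35 members were lower in DDKC_9750 than in DDKC_9804 (7527 of all 15214 genes), and with rDKK3, 27 were higher (7798 of all genes). The order of these 2 lines turned in this way for 15 members (42.9%), against 14.1% of all tested genes, and in the opposite way for 1 (2.86%, against 13.3%). The median of DDKC_9750 minus DDKC_9804 was -0.38 on the log2 scale untreated and 0.84 with rDKK3, beside 0.0063 and 0.025 for all genes. The direction was the same in both library number series for 29 of 29 members that could be compared in DDKC_9750, for 26 of 29 in DDKC_9804 and for 15 of 29 in DDKC_9790. The libraries are taken here as repeats of 1 culture, so this agreement does not repeat the difference in another culture. The share over all genes was not taken.

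**Figure D3:**
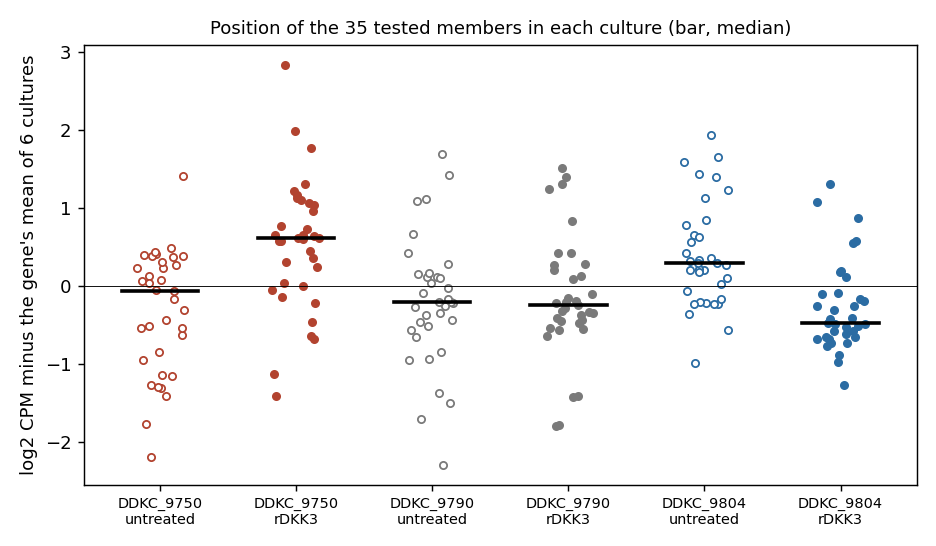
Log2 CPM of the 35 tested members minus the mean of each gene over the 6 cultures (y axis), by culture (x axis), open for untreated and filled for rDKK3, with the median as a bar. The median rises from -0.065 to 0.61 in DDKC_9750, stays at -0.21 and -0.24 in DDKC_9790, and drops from 0.30 to -0.48 in DDKC_9804.

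The IFIT proteins bind foreign RNA and block its translation. Ifit1 was at 0.433 CPM untreated and 1.46 CPM with rDKK3 in DDKC_9750, at 0.988 and 0.864 CPM in DDKC_9790, and at 3.85 and 1.40 CPM in DDKC_9804. Its difference was therefore 1.56 in DDKC_9750, -0.18 in DDKC_9790 and -1.41 in DDKC_9804 on the log2 scale. Treated and untreated cultures overlapped, with 1.76 ± 1.84 CPM untreated and 1.24 ± 0.328 CPM treated (SD, n = 3). Ifit3 was at 0.667 and 2.14 CPM in DDKC_9750, 0.988 and 1.67 CPM in DDKC_9790, and 1.74 and 1.56 CPM in DDKC_9804, and its near copy Ifit3b moved by 1.76, 0.58 and -0.97. Of the 50-base words of Ifit3b, 48.0% also occur in other genes, mostly Ifit3, so the split of counts between this pair is uncertain. Ifit2 ran the other way. It was at 2.37 and 1.66 CPM in DDKC_9750, at 3.82 and 5.02 CPM in DDKC_9790, and at 4.28 and 7.97 CPM in DDKC_9804, a difference of 0.88 in the line where Ifit1 was lower with rDKK3. All 4 genes lie on chromosome 19 in the order Ifit2, Ifit3, Ifit3b and Ifit1, with 7111, 19238 and 27469 bases between them (GRCm39). Other genes in these gaps were not looked for. Ifit2 has no match to GAAANNGAAA in its promoter windows.

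**Figure D4:**
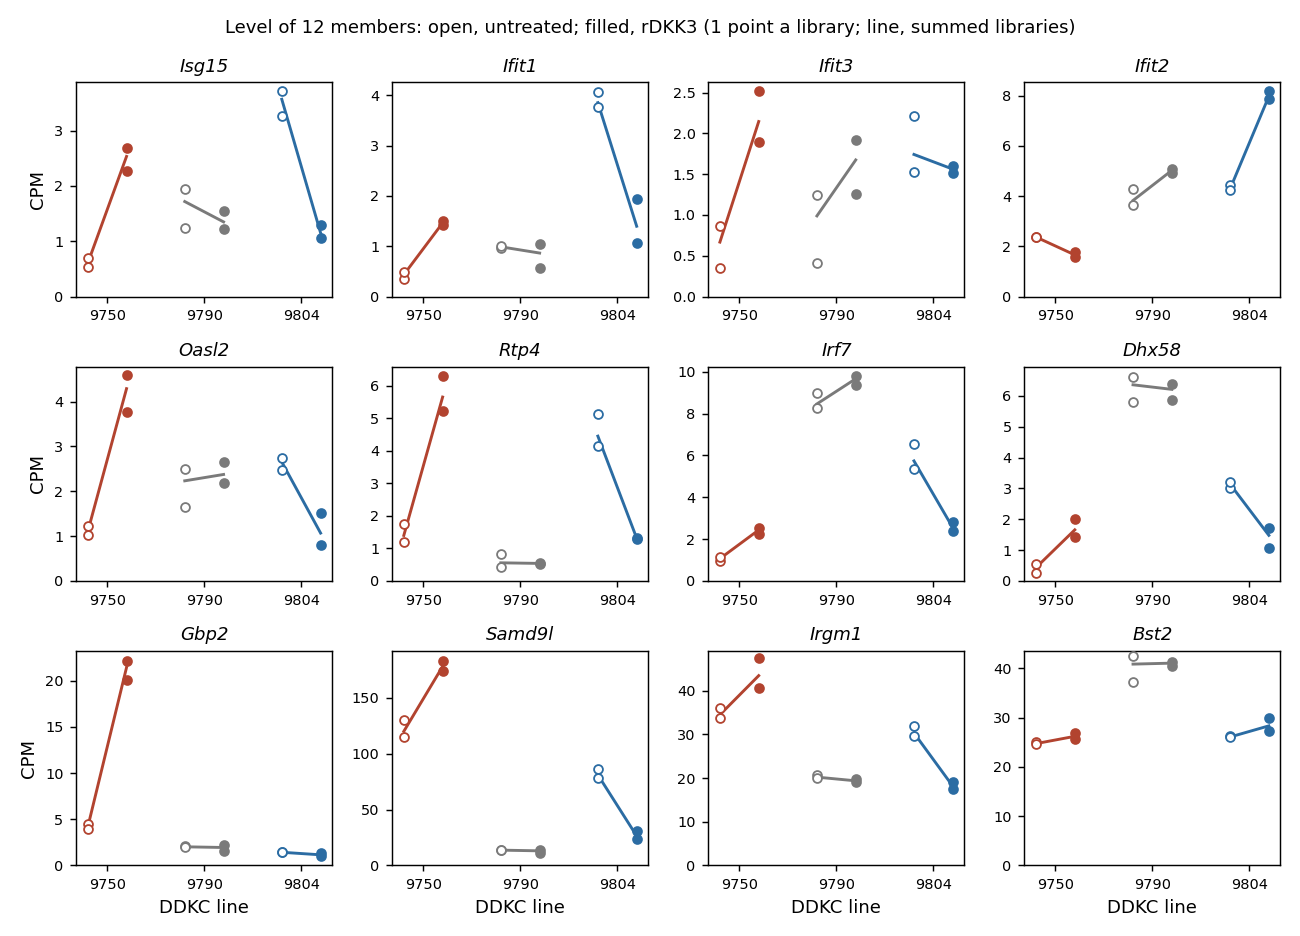
Level in CPM (y axis, from 0) of 12 members in the 3 lines (x axis), with open points for the 2 untreated libraries, filled points for the 2 rDKK3 libraries, and a line that joins the values of the summed libraries. The 2 libraries of a condition lie close together beside the shifts in DDKC_9750 and DDKC_9804 for Isg15, Rtp4 and Samd9l, while Bst2 hardly moves.

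Isg15 encodes the ubiquitin-like protein that ISG conjugation is named for. It was at 0.600 CPM in untreated and 2.53 CPM in treated DDKC_9750, at 1.72 and 1.35 CPM in DDKC_9790, and at 3.57 and 1.15 CPM in DDKC_9804. The highest value was in an untreated culture and the second highest in a treated one, and the differences were 1.92, -0.33 and -1.56. The 95% intervals from counting alone (exact binomial) were 1.16 to 3.03 in DDKC_9750 and -2.55 to -0.83 in DDKC_9804. Usp18, which removes ISG15 from proteins and restrains the interferon receptor, was at 0.400 and 0.682 CPM in DDKC_9750 (12 and 7 counts). It was at 0.172 and 0.0540 CPM in DDKC_9790 (4 and 1 counts) and at 1.51 and 0.657 CPM in DDKC_9804 (53 and 8 counts). Its differences were 0.65, -0.85 and -1.10. Trim25, a ubiquitin ligase that activates RIG-I, had the highest untreated level of the group per kilobase of exon and hardly moved, at 111 and 97.5 CPM in DDKC_9750, 93.3 and 103 CPM in DDKC_9790, and 81.3 and 84.6 CPM in DDKC_9804.

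The other members of this group are Herc6, the mouse ISG15 ligase, the ligase Trim21, and Dtx3l, Parp9 and Parp14, which act in ADP-ribosylation and ubiquitylation. They were higher in DDKC_9750 by 0.37 to 0.86 and lower in DDKC_9804 in every case, by a difference of -0.27 to -0.83. Dtx3l was at 30.3 and 50.7 CPM in DDKC_9750, 22.4 and 22.0 CPM in DDKC_9790, and 24.9 and 16.1 CPM in DDKC_9804. Its divergent partner Parp9 was at 28.4 and 48.1 CPM, 17.1 and 15.1 CPM, and 23.5 and 13.1 CPM in the same order. Dtx3l and Parp9 overlap by 682 bases on opposite strands of chromosome 16, and counting used the strand.

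Of the cytosolic nucleic acid sensors, all 4 that were tested were higher in DDKC_9750 and lower in DDKC_9804. Rigi (RIG-I) senses viral RNA ends and was at 15.8 and 25.5 CPM in DDKC_9750, 10.1 and 9.93 CPM in DDKC_9790, and 10.3 and 7.56 CPM in DDKC_9804. Dhx58 (LGP2), which tunes that sensing, was at 0.433 and 1.66 CPM, 6.36 and 6.21 CPM, and 3.14 and 1.48 CPM, so that DDKC_9790 stayed highest with and without rDKK3. Ifih1 (MDA5), the sensor of long double-stranded RNA, differed by 0.64, -0.35 and -0.54. Ddx60, a helicase that aids RIG-I, had 2 counts in untreated and 9 counts in treated DDKC_9750, a log2 ratio with a counting interval of 1.45 to 6.97.

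The transcription factors among the members carry the interferon signal. Stat2 and Irf9, partners in the complex that binds the ISRE, differed by 0.38 and 0.34 in DDKC_9750 and by -0.38 and -0.53 in DDKC_9804. Irf7, which amplifies type I interferon genes, was at 1.07 and 2.44 CPM in DDKC_9750, 8.46 and 9.66 CPM in DDKC_9790, and 5.74 and 2.55 CPM in DDKC_9804. Its level in DDKC_9790 was above both cultures of the other lines under either condition. Irf9 was at 24.3 and 30.8 CPM, 11.4 and 13.0 CPM, and 20.9 and 14.5 CPM. Irf1, a factor raised by interferon gamma, was at 43.3 and 59.3 CPM in DDKC_9750 but at 37.2 and 34.4 CPM in DDKC_9790 and at 35.4 and 33.0 CPM in DDKC_9804, so the treated DDKC_9750 culture stood above the other 5.

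The oligoadenylate synthetases make the messenger that activates RNase L. Their relative Oasl2 was at 1.10 and 4.29 CPM in DDKC_9750, 2.23 and 2.38 CPM in DDKC_9790, and 2.65 and 1.07 CPM in DDKC_9804, a difference of 1.88, 0.09 and -1.24. Its neighbour Oasl1, 11003 bases away on chromosome 5, differed by -0.17, 0.15 and -0.01, at 6.80 and 6.04 CPM, 20.9 and 23.1 CPM, and 6.54 and 6.49 CPM. Oas3 was seen mainly in DDKC_9790, with 36 and 25 counts there, 19 and 2 counts in DDKC_9804 and 4 and 1 counts in DDKC_9750. Scaled, it was at 1.55 and 1.35 CPM, 0.542 and 0.164 CPM, and 0.133 and 0.0975 CPM in that order.

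Samd9l, an antiviral protein that also restrains growth, had large differences within 2 lines as well as between lines. It was at 120 and 178 CPM in DDKC_9750, at 13.7 and 13.1 CPM in DDKC_9790, and at 81.1 and 26.4 CPM in DDKC_9804. With 319 counts or more in all cultures but 1 treated culture of 242, its differences of 0.57 and -1.62 had counting intervals of 0.49 to 0.65 in DDKC_9750 and -1.79 to -1.45 in DDKC_9804. Bst2 (tetherin), which holds budding viruses at the cell surface, differed by 0.08, 0.01 and 0.12 only. Per kilobase of exon Bst2 had the highest untreated level of the members, at 25.2 CPM per kb, ahead of Trim25 at 16.6, Samd9l at 12.2, Ifi27 at 9.63 and Irf1 at 8.27 CPM per kb.

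The interferon-gamma-type GTPases attack membranes around intracellular pathogens, and all 4 tested genes were higher in DDKC_9750 and lower in DDKC_9804. Of the tested members with more than 3 counts in both cultures of a line, Gbp2 had the largest difference, at 4.13 CPM untreated and 21.4 CPM with rDKK3 in DDKC_9750, with 2.02 and 1.94 CPM in DDKC_9790 and 1.43 and 1.15 CPM in DDKC_9804. Its difference of 2.35 in DDKC_9750 had a counting interval with a lower bound of 2.05. Gbp7, of the same gene cluster on chromosome 3, was at 0.967 and 2.14 CPM, 3.61 and 4.05 CPM, and 2.54 and 1.56 CPM. Igtp differed by 0.62, 0.10 and -0.93. Irgm1 was at 34.5 and 43.5 CPM in DDKC_9750, 20.2 and 19.4 CPM in DDKC_9790, and 30.3 and 18.2 CPM in DDKC_9804.

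Among other induced proteins, Rtp4, a chaperone of membrane receptors, had the widest gap between DDKC_9750 and DDKC_9804 in its difference with rDKK3. It was at 1.40 and 5.65 CPM in DDKC_9750, 0.558 and 0.540 CPM in DDKC_9790, and 4.45 and 1.31 CPM in DDKC_9804, a difference of 1.94, -0.04 and -1.69. Of its 50-base words, 25.7% are shared with the gene model Gm45338, so its counts are uncertain. Xaf1, an antagonist of the apoptosis inhibitor XIAP, was at 1.27 and 2.73 CPM, 1.55 and 1.57 CPM, and 2.77 and 1.23 CPM. Ifi44 was at 0.233 and 0.780 CPM in DDKC_9750, 0.215 and 0.594 CPM in DDKC_9790, and 3.23 and 2.05 CPM in DDKC_9804. Ifi27, a small mitochondrial and nuclear membrane protein, was at 40.6 and 47.5 CPM, 41.1 and 29.7 CPM, and 47.2 and 28.8 CPM, lower with rDKK3 in DDKC_9790 and DDKC_9804. Ifi35 differed by 0.40, -0.09 and -0.18. The chemokine Cxcl10, which attracts T cells, was near the floor, with 15 and 5 counts, 0 and 4 counts, and 34 and 9 counts. Scaled for the smaller totals of the treated cultures, it differed by -0.031 in DDKC_9750, 1.73 in DDKC_9790 and -0.35 in DDKC_9804 (log2 CPM). Its counting interval spanned zero in every line.

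The 11 members under the filter were Zbp1, Oas1a, Oas2, Mx1, Mx2, Rsad2, Cmpk2, Gbp3, Iigp1, Cxcl9 and Epsti1, with 0 to 41 counts in each culture. Several textbook ISGs are thus among those that were barely detectable at this depth. The GTPase Mx1 had 10 untreated and 19 treated counts in DDKC_9750 and 0 to 4 counts elsewhere. Epsti1 had 13 and 31 counts in DDKC_9750, 13 and 8 in DDKC_9790, and 12 and 0 in DDKC_9804. Zbp1, a sensor of left-handed nucleic acid, had 3 and 17 counts in DDKC_9750 and 3 to 7 elsewhere. Untreated DDKC_9804 held 41 counts of Oas1a, 35 of the mitochondrial nucleotide kinase Cmpk2, 30 of Rsad2 (viperin) and 28 of Iigp1. Its treated culture, of smaller total, held 4, 1, 13 and 1. Scaled to CPM, Oas1a (1.17 and 0.329), Cmpk2 (0.999 and 0.0822) and Iigp1 (0.799 and 0.0822) were lower there with rDKK3. Rsad2 was not, at 0.856 and 1.07 CPM. Cxcl9, the chemokine typical of interferon gamma, had 0 to 3 counts. With these genes included and no filter, the median differences over all 46 members were 0.67, -0.031 and -0.63.

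Whether the response depended on the line was tested by the interaction of line and treatment over the 12 libraries. The spread here comes only from libraries of the same culture, which differed by no more than sampling noise once the library number series was fitted, so the test holds no spread between cultures and says nothing of lines in general. By this edgeR test 30 of 35 members had an adjusted p under 0.05, with a background of 61.9% of 15165 genes. The members in this fit included Mx1 and Epsti1 in place of Ddx60 and Cxcl10. Adjusted p by edgeR was 4.07e-85 for Samd9l, 1.28e-16 for Rtp4, 9.42e-16 for Gbp2 and 3.58e-09 for Isg15. The 5 that did not pass were Usp18, Oas3, Oasl1, Bst2 and Mx1, with adjusted p of 0.102, 0.396, 0.408, 0.632 and 0.243.

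The level of the members was also compared between lines, with treatment allowed for. In the edgeR fit on the 6 cultures, 7 of 35 members had an adjusted p under 0.05 for the line (20%), against 32.2% of all tested genes. That order depended on the tool: DESeq2's likelihood ratio test called 16 of 35 members (45.7%) and 39.5% of all genes, and edgeR without the filter on low counts called 23 of 46 (50%) and 22.7%. Oasl1 (adjusted p = 0.00727 by edgeR), Oas3 (0.0237) and Bst2 (0.0325) were highest in DDKC_9790. Samd9l (0.0191) and Irf9 (0.0488) were lowest in DDKC_9790, Gbp2 (0.0494) was highest in DDKC_9750, and Ifi44 (0.0401) was highest in DDKC_9804. For Samd9l the lines did not overlap between DDKC_9790 and either other line, at 13.1 to 13.7 CPM against 26.4 CPM or more. Irf9 and Bst2 lost the call without replicate 2, at adjusted p of 0.0612 and 0.0511 by edgeR, and Oas3 and Ifi44 were not tested without either replicate.

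The differences with rDKK3 were also read by the presence of GAAANNGAAA and TTCNNNGAA, without a test between the groups. The 15 tested members with GAAANNGAAA had median differences of 0.69 in DDKC_9750, -0.052 in DDKC_9790 and -0.67 in DDKC_9804, and the 13 matched members without them had 0.45, 0.15 and -0.62. The 6 tested members with TTCNNNGAA had medians of 0.42, 0.052 and -0.14, and the 22 without it had 0.71, 0.0099 and -0.68. Oasl2, Irf7, Samd9l and Xaf1, each lower by more than 1 in DDKC_9804, have no GAAANNGAAA match in this window.

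The rest of the interferon pathway was read from a list of 41 genes for ligands, receptors, kinases, STAT and IRF factors, sensors and inhibitors, of which 29 were tested. By edgeR 0 of 29 had an adjusted p under 0.05 for rDKK3, with the same background of 0.00657%, and 1 (Ptpn6) had an unadjusted p under 0.05. DESeq2 called 0 by adjusted p and 2 by unadjusted p. Of 10 listed interferon ligands, 9 had 0 counts in every library, Ifnb1 and Ifng among them, and Ifnk had 2 counts in treated DDKC_9790 and 1 count in treated DDKC_9804. A count of 0 allows a level of up to 0.0856 to 0.292 CPM in these cultures. Il10rb, a chain of the interferon lambda receptor, and Nlrc5, the activator of MHC class I genes, were under the filter with at most 10 and 4 counts. The median differences of the 29 genes were 0.20 in DDKC_9750, 0.016 in DDKC_9790 and -0.11 in DDKC_9804, nearer to zero than those of the members, and 21 of 29 were higher in DDKC_9750 and 18 of 29 lower in DDKC_9804, where 7395 and 8168 of all 15214 tested genes were. No gene of the list differed in all 3 lines by at least 0.5 in the same direction.

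In the test between lines 10 of the 29 passed, against 32.2% of all tested genes. The receptor chain Ifngr1 was at 352 and 455 CPM in DDKC_9750, 154 and 137 CPM in DDKC_9790, and 80.2 and 85.5 CPM in DDKC_9804 (edgeR, adjusted p = 0.00428). Ifnar1 was at 106 and 167 CPM, 60.1 and 58.5 CPM, and 94.8 and 79.1 CPM in the same order (edgeR, adjusted p = 0.0387). Stat3, the factor of IL6-type cytokines, was at 149 and 280 CPM, 91.5 and 104 CPM, and 94.1 and 87.2 CPM (edgeR, adjusted p = 0.0337). Ifnlr1, Jak2, Ikbke, Irf8, Sting1, Ptpn6 and Adar also passed.

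Values of a few other pathway genes are given because of their place in the pathway, and were chosen after the values were seen. Ifnar2, the second type I receptor chain, was at 14.3 and 52.3 CPM in DDKC_9750 and between 10.1 and 12.6 CPM in the 4 other cultures. Ifngr2, the second interferon gamma receptor chain, was at 95.1 and 245 CPM, 62.3 and 62.4 CPM, and 59.6 and 34.8 CPM. In DDKC_9804 Tlr3, a sensor of double-stranded RNA in endosomes, was at 15.2 CPM untreated and 5.51 CPM with rDKK3, and Sting1, the adaptor of DNA sensing, was at 50.5 and 27.1 CPM. Other genes of the list went otherwise. Irf8, a factor of blood cell development, had 11 and 0 counts in DDKC_9750 and was at 3.14 and 5.83 CPM in DDKC_9804, a difference there of 0.87 with a counting interval of 0.44 to 1.34. Irf5 differed by -0.46 in DDKC_9750, -0.0054 in DDKC_9790 and 0.33 in DDKC_9804. Ptpn6, a phosphatase that dampens cytokine signalling, was lower in all 3 lines, with differences of -1.16, -0.27 and -1.21. Jak1, a kinase of the type I and interferon gamma receptors, stayed between 150 and 199 CPM in all 6 cultures.

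**Figure D5:**
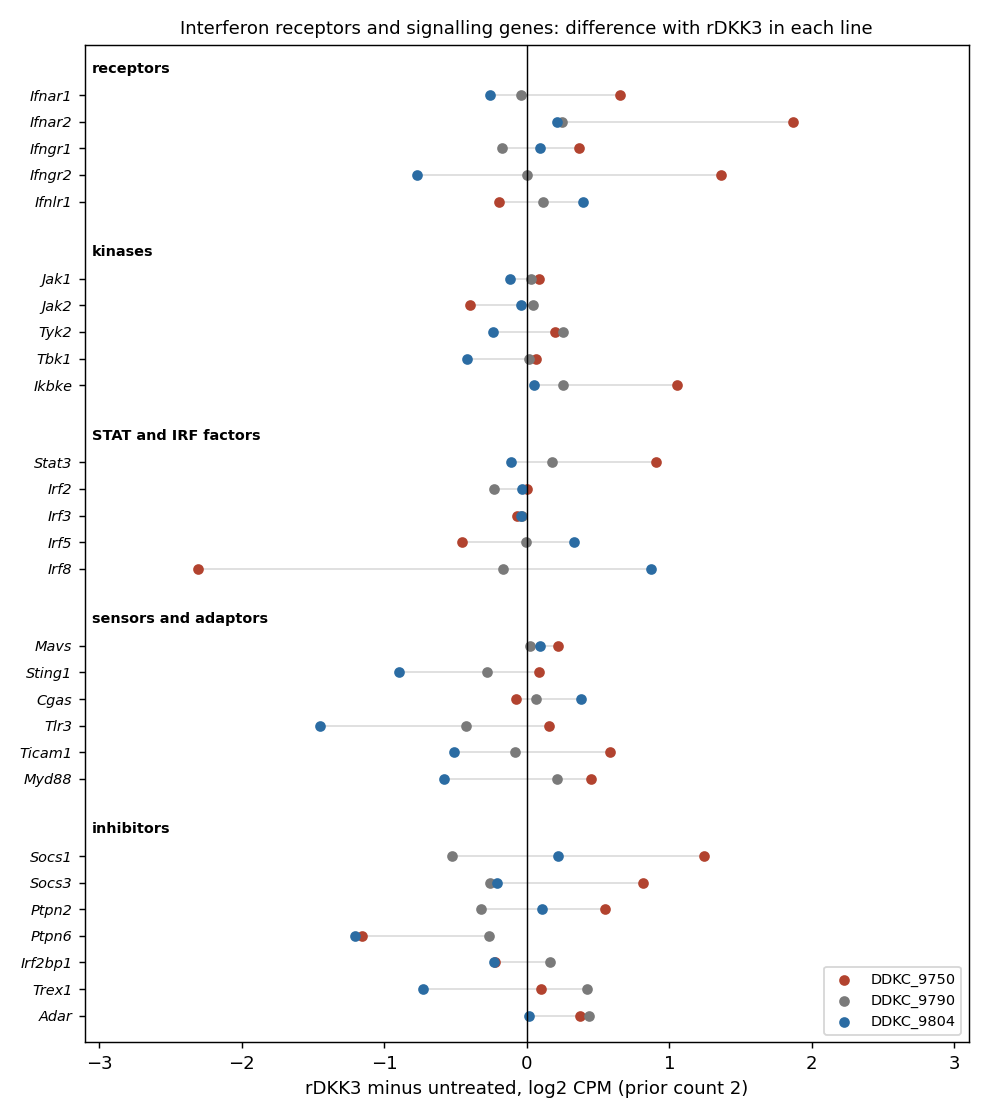
Difference of log2 CPM (prior count 2), rDKK3 minus untreated, for tested receptors, kinases, factors, sensors and inhibitors of the interferon pathway (rows), with 1 point for each line and a grey bar over their range. Ifnar2 and Ifngr2 lie farthest right in DDKC_9750 at 1.86 and 1.36. Irf8 lies farthest left there at -2.31, where its treated culture had 0 counts, and Tlr3 farthest left in DDKC_9804 at -1.45.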

How the data were processed

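RNA of 3 DDKC lines with and without rDKK3 was sequenced as 50-base read pairs. The authors aligned them with STAR 2.7.9a to GRCm39, counted them by strand over GENCODE exons with GenomicAlignments and deposited raw counts per gene, the unit used here, without normalization. The study's own tests used DESeq2 1.38.0. Rows of 92 spike-ins, all with 0 counts, were left out.

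Counts of the 2 libraries of each line and condition were added, because they differed by less than sampling noise once a library number series was fitted (6.44 deviance per degree of freedom without it, 0.780 with it). edgeR 4.0.16 (R 4.3.3) kept 15214 genes by its filter over treatment, normalized by TMM and tested line and treatment by quasi-likelihood with Benjamini-Hochberg adjustment at 0.05. Line pairs the samples by the labels (deviations from the mean of a condition correlated by 0.818 on average and at least 0.786 within a line). The -0.410 across lines follows largely from subtracting that mean. The labels do not name separate cultures, so p-values measure the spread between these samples. The line-dependent test used 12 libraries with the library number series. Log2 CPM had a prior count of 2.

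Members and lists were chosen with earlier results of these data known. Members were named in full where a line differed by at least 1 with more than 3 counts, where called, or at the highest level of a role. Some genotype details and single genes are not reported here. Scripts were tested on simulated data. DESeq2 1.42.0, other filters and scalings, left-out lines and libraries, and thinning were the alternatives. Intervals are exact binomial at 95% and cover counting error only. Promoters came from RefSeq (GRCm38.p6).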

Additional observations from a re-analysis of the deposited data

Results flagged for a closer look

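In edgeR's interaction test over the 12 libraries, the rDKK3 differences of the 3 lines' cultures differed by more than the spread between libraries of 1 culture for 30 of the 35 members, against 61.9% of all 15165 genes in it. The 29 given here were also tested in the 6 cultures, with adjusted p between 4.07e-85 and 0.0207 in the interaction test by edgeR. That test holds no spread between cultures, so it does not show that the lines differ beyond these single cultures. In 27 of them the log2 difference with rDKK3 was higher in DDKC_9750 than in DDKC_9804. DDKC_9750 minus DDKC_9804 was Rtp4 3.64, Isg15 3.48, Oasl2 3.12, Ifit1 2.97, Dhx58 2.77, Ifit3b 2.73, Gbp2 2.64, Irf7 2.27, Samd9l 2.19, Xaf1 2.16, Ifi44 2.05, Gbp7 1.75, Ifit3 1.71, Parp9 1.59, Igtp 1.55, Dtx3l 1.36, Ifih1 1.18, Rigi 1.13, Parp14 1.13, Herc6 1.11, Trim21 1.11, Irgm1 1.07, Ifi27 0.93, Irf9 0.87, Stat2 0.76, Ifi35 0.58 and Irf1 0.55. The gap was turned the other way for Trim25 at -0.25 and Ifit2 at -1.37. No cause of these differences was tested.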

How the results depend on the processing

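The count of members called for rDKK3 was 0 with DESeq2 (8 of 35 had no adjusted p), with RLE normalization, without the filter, with the 6 cultures thinned to 9914553 counts, without any 1 line and without replicate 1 or 2. With no replicate block it was also 0, and the pairing by line changed no call among the members. With the 12 libraries as separate samples it was 1, Mx1, at an adjusted p of 0.011 by edgeR, where all genes called rose from 1 to 3124. That fit takes repeats of a culture as replicates. All genes called were 96 by DESeq2, 90 without the filter and 0 to 2 without 1 line. The median log2 fold change of the members was -0.30 without DDKC_9750 and 0.32 without DDKC_9804. Members called between lines were 23 of 46 without the filter (22.7% of all genes), 16 of 35 by DESeq2's likelihood ratio test (39.5% of all genes), and 6 to 9 of 29 without a replicate (33.3% and 34.3% of all genes). Members called in the interaction test were 29 without the library number series, where 49.3% of all genes were called. The median difference in DDKC_9790 was 0.031 with counts scaled to the library total only. Without a replicate, 29 members were tested, and the medians ran from 0.553 to 0.646 in DDKC_9750, from -0.038 to 0.036 in DDKC_9790 and from -0.678 to -0.522 in DDKC_9804. Members higher by at least 0.5 in DDKC_9750 and lower by at least 0.5 in DDKC_9804 were then 11 to 13, against 17 of 35. Thinned, 14 of 29 showed it, and the medians were 0.70, 0.016 and -0.61. The scaling moved the median of all genes by at most 0.058. Depth limits the members under about 1 CPM, whose single counts move a ratio.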

Other observations

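A list of 37 other interferon-induced genes, of which 30 were tested, was read beside the members. By edgeR 0 of 30 were called for rDKK3 (background 0.00657%; 0 by unadjusted p, and by DESeq2 0 and 1) and 11 were called between lines (background 32.2%). Their median differences were 0.57 in DDKC_9750, -0.15 in DDKC_9790 and -0.44 in DDKC_9804, and 25 of 30 were higher in DDKC_9750 and 26 of 30 lower in DDKC_9804, against 7395 and 8168 of all 15214 tested genes. The list was written with results of these data known, so it is a description. Ifitm3, which blocks viral entry at endosomes, was at 0.267 CPM untreated and 1.95 CPM with rDKK3 in DDKC_9750, at 30.0 and 24.3 CPM in DDKC_9790, and at 3.996 and 1.07 CPM in DDKC_9804. Gbp9, a guanylate-binding GTPase, was at 2.40 and 11.3 CPM, 0.387 and 0.162 CPM, and 3.88 and 0.986 CPM in the same order. The immunoproteasome subunit Psmb9 was at 0.634 and 1.95 CPM, 3.14 and 2.97 CPM, and 1.14 and 0.411 CPM, and Psmb10 was at 11.9 and 23.98 CPM, 11.1 and 9.88 CPM, and 14.8 and 9.29 CPM. Ifi203, a DNA-binding protein, was at 1.30 and 6.63 CPM in DDKC_9750 but at 25.9 and 37.4 CPM in DDKC_9804, higher with rDKK3 in both lines. Pml, Daxx and Pnpt1 stayed within 0.25 of zero in every line. These genes were named after their values were seen.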
